A study of Homo sapiens with 9 samples.

Results

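Bone morphogenetic protein (BMP) ligands and the genes they switch on first were followed through the differentiation of human embryonic stem cells (hESC) towards otic progenitors, which build the inner ear. The set held 10 genes: the ligands BMP2, BMP4, BMP5 and BMP7, the ID1 to ID4 genes, and the feedback inhibitors BAMBI and SMAD6. They were chosen by name, and all 10 were measured, out of 19775 genes on the array. Their 23 probe sets each carried 1 of these gene symbols alone in the platform annotation, of 54675 probe sets in all. The brightest probe set of a gene, by its mean over 9 arrays, was taken as its main one.

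The cells were the established lines Shef3, H14 and Shef1, with 1 array per line in each of 3 groups. In the FGF3+10 group, cells dissociated with trypsin and plated on laminin spent 14 days in DFNB, a serum-free DMEM and F12 medium with N2 and B27, with 50 ng/ml of FGF3 and 50 ng/ml of FGF10. The DFNB group spent 14 days on laminin in the same medium without added FGFs. The hESC group was undifferentiated, taken at day 0 from feeders of mouse embryonic fibroblasts, in medium with serum replacement and basic FGF at 4 ng/ml. The day 14 groups thus differ from hESC also in feeders, substrate and medium. No label describes a sort, so each array reports a whole culture. Values are given below in the order Shef3, H14 and Shef1, on the authors' log scale, taken as log2, so that a difference of 1 unit is a doubling if that base is right.

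BMPs are secreted proteins of the TGF-beta family. They bind pairs of type I and type II receptors, which phosphorylate SMAD1, SMAD5 and SMAD9, and these move to the nucleus with SMAD4. The ID genes are direct and fast targets: their products lack a DNA-binding region and hold back the basic helix-loop-helix factors of differentiation. SMAD6, an inhibitory SMAD, and BAMBI, a decoy receptor without a kinase, are induced by the pathway and dampen it. In the embryo, BMP signalling at the neural plate border sets epidermis against neural tissue and helps place the preplacodal ectoderm, from which the ear forms. In human pluripotent cells, added BMP4 is known to drive exit from the undifferentiated state towards trophoblast-like and mesodermal fates.

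The promoters of the ID genes and BAMBI are shown because these are the direct targets whose levels are described below. Each stretch runs from 250 bases before to 50 bases after the RefSeq gene start on GRCh38.p14, 5′ to 3′ on the gene's strand. Capitals mark the motif GGCGCC, which reads the same on both strands, and the motif GGAGCC on either strand. BMP-activated SMADs are known to bind such GC-rich letters.
ID1, chr20:31605039-31605338, plus strand: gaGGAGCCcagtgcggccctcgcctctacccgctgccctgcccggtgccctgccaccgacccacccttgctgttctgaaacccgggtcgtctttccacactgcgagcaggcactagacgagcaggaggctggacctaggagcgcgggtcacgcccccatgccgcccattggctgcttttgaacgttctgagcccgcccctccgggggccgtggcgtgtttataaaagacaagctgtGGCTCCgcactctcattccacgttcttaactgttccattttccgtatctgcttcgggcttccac
ID2, chr2:8681806-8682105, plus strand: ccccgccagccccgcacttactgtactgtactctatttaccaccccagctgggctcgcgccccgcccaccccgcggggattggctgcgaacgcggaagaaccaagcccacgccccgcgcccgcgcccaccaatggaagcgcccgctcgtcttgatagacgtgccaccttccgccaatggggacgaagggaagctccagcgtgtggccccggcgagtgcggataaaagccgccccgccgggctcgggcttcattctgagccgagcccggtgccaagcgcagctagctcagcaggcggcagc
ID3, chr1:23559452-23559751, minus strand: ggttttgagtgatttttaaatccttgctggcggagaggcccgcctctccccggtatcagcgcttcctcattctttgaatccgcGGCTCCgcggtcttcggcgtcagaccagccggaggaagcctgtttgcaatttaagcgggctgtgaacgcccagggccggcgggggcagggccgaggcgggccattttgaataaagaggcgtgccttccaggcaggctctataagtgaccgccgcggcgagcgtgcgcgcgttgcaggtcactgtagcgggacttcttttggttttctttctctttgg
ID4, chr6:19837120-19837419, plus strand: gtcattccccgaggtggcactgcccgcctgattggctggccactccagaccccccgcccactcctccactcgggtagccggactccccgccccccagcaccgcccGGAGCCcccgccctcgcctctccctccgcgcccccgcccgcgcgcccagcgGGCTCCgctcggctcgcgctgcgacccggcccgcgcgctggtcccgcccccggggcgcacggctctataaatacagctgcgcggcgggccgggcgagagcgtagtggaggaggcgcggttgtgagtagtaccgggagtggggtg
BAMBI, chr10:28677271-28677570, plus strand: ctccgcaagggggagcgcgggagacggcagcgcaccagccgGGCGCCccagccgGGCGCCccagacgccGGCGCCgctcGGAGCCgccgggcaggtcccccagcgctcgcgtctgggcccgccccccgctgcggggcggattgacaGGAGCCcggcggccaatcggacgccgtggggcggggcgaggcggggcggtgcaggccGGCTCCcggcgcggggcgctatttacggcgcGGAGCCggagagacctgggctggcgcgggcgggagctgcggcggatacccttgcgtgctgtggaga

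The BAMBI window held 7 such matches, 3 of them GGCGCC, while those of ID1 and ID4 held 2 each, that of ID3 held 1 and that of ID2 none. Of 35116 RefSeq promoters of this length, 45.3% held at least 1 match to either motif and 19.2% held GGCGCC. The shorter SMAD box GTCT, on either strand, stood in all 5 windows and in 84.0% of all promoters. These matches describe letters within 300 bases of a gene start and nothing more. Of the 10 genes, 8 had a promoter in the table, and those of BMP4, BMP5 and SMAD6 are not printed.

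The authors set all 9 arrays to 1 median of 3.20. The upper quartile ran from 6.02 to 6.46, with a mean of 6.07 ± 0.04 (SD, n = 3 arrays) for Shef1, against 6.33 ± 0.01 for H14 and 6.31 ± 0.14 for Shef3. The mean of the poly-A spike-ins, which are added to the RNA before labelling, was 7.24 ± 0.04 on the Shef1 arrays, against 5.06 ± 0.09 in H14 and 5.04 ± 0.36 in Shef3. For the GAPDH control, the 3′ probe set minus the 5′ probe set was 0.22 ± 0.09 in FGF3+10, 0.19 ± 0.01 in DFNB and 0.33 ± 0.17 in hESC. The Shef1 arrays thus stood apart from the other lines in both spike-ins and upper quartile, and differences from hESC are given below also without the hESC array of Shef1. That fit keeps the day 14 arrays of Shef1, so for a gene that is low in Shef1 throughout it also shifts the balance of lines. In such cultures, fewer cells of a type and less RNA per cell cannot be told apart.

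**Figure D1:**
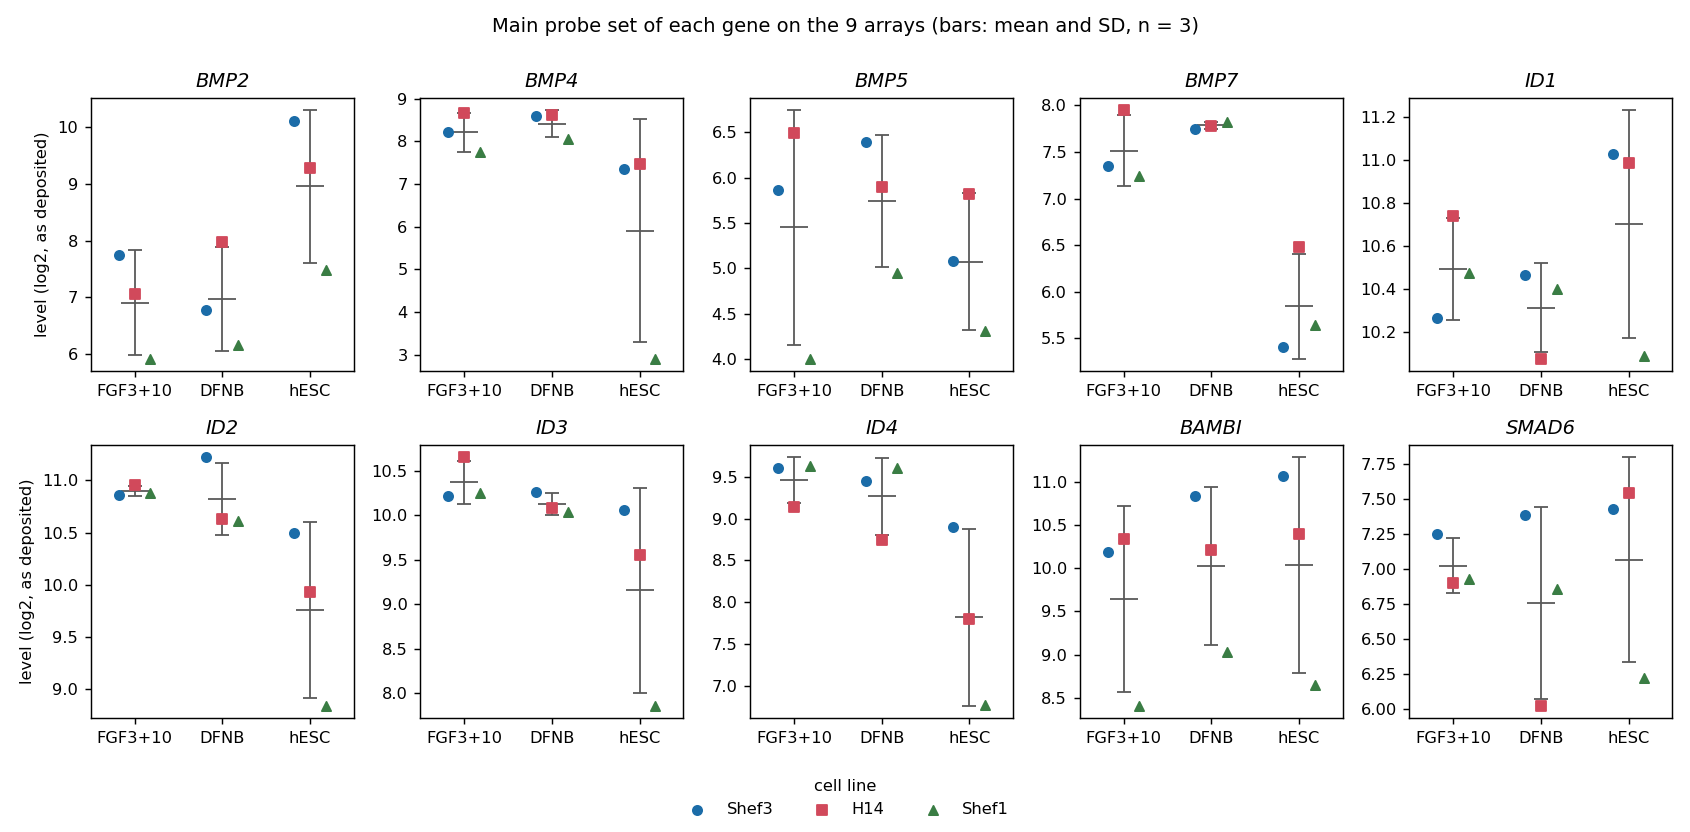
Level (log2, as deposited) of the main probe set of each of the 10 genes on the 9 arrays, by group on the x axis and with a symbol for each cell line. Bars are the mean and SD of 3 arrays. BMP7, BMP4 and ID2 lie higher on all 6 day 14 arrays than on any hESC array, and the hESC array of Shef1 is the lowest hESC array in 9 of 10 panels.

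At day 14, BMP4, BMP7, ID2, ID3 and ID4 were higher than in hESC in every line and both media, BMP2 was lower, and ID1, BAMBI and SMAD6 had no common direction. For both-media agreement of this kind, 5 of the 10 genes were higher within every line, against 9.56% of all genes, and 1 was lower, against 17%. On all 6 day 14 arrays 3 of the 10 lay above all 3 hESC arrays (BMP4, BMP7 and ID2), against 4.23% of all genes, and none lay below, against 8.02%. The median log2 difference of the 10 genes was 0.76 for FGF3+10 minus hESC and 0.82 for DFNB minus hESC, where all genes had a median of -0.19 in both. Quantile normalisation took the median of all genes to -0.06 in FGF3+10 and -0.08 in DFNB, so part of any difference is set by the scaling. Group by group, 5 of 10 did not overlap hESC from above in FGF3+10, against 5.68% of all genes, and 3 of 10 in DFNB, against 7.8%, while none lay below hESC without overlap, against 11.3% and 14.3%. In FGF3+10, 5 of 10 were higher in all 3 lines and 2 were lower (BMP2 and BAMBI), against 13.3% and 24.6% of all genes. In DFNB, 6 of 10 were higher, BMP5 among them, and 1 was lower (BMP2), against 15.9% and 25.9%. Both comparisons use the same 3 hESC arrays, so they are not independent.

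No single gene of the 10 passed an adjusted p of 0.05 in limma's moderated test over all genes without a block for cell line. The lowest adjusted p was 0.116 for FGF3+10 against hESC, where 0.177% of all genes were called. It was 0.0694 for DFNB against hESC, where 0.202% were called. Both belonged to BMP7. At an unadjusted p below 0.05, BMP7, ID2, ID3 and ID4 were higher in FGF3+10, 4 of 10 against 4.52% of all genes, and BMP2 was lower, 1 of 10 against 7.47%. In DFNB, BMP4, BMP7, ID2 and ID4 were higher, 4 of 10 against 6.11%, and BMP2 was lower, 1 of 10 against 9.69%. With the cell line as a block, which pairs the arrays of a line, BMP7 was called in DFNB (adjusted p = 0.0468) and no gene of the 10 in FGF3+10. That fit called 0.506% of all genes as higher in DFNB and 0.303% in FGF3+10.

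BMP7 encodes a ligand of the sensory placodes, kidney and eye. On its main probe set the differences from hESC were of similar size in the 3 lines in FGF3+10. Their SD over lines was 0.24 in FGF3+10 and 0.56 in DFNB. Its main probe set (209590_at) stood at 7.35, 7.95 and 7.24 in FGF3+10 and at 7.75, 7.78 and 7.82 in DFNB, against 5.41, 6.48 and 5.65 in hESC. Every day 14 array was above every hESC array, and the 3 DFNB arrays lay within an SD of 0.04. Against hESC the log2 difference was 1.67 ± 0.36 (SE, n = 3 and 3 arrays) for FGF3+10 (adjusted p = 0.116, and 0.0743 with the block). For DFNB it was 1.94 ± 0.36 (adjusted p = 0.0694, and 0.0468 with the block). Without the hESC array of Shef1 it was 1.57 for FGF3+10 (adjusted p = 0.220) and 1.84 for DFNB (adjusted p = 0.135). Within the lines Shef3, H14 and Shef1 it was 1.94, 1.47 and 1.60 in FGF3+10 and 2.34, 1.30 and 2.18 in DFNB. Other probe sets of BMP7 varied more by line in FGF3+10. There 209591_s_at gave 0.62, 1.22 and 1.28, and 211259_s_at gave 0.54, 1.43 and 1.96.

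BMP4, the ligand most used to push stem cells out of the undifferentiated state, had levels of 8.21, 8.66 and 7.76 in FGF3+10 and 8.58, 8.61 and 8.05 in DFNB, against 7.36, 7.47 and 2.91 in hESC (211518_s_at). The 6 day 14 arrays lay above the 3 hESC arrays, but most of the mean difference came from the single low hESC array of Shef1. On the log2 scale the difference was 2.30 ± 1.08 (SE) for FGF3+10 (adjusted p = 0.443) and 2.50 ± 1.08 for DFNB (adjusted p = 0.309). Within Shef1 it was 4.85 and 5.14, against 0.85 and 1.23 in Shef3 and 1.19 and 1.14 in H14, for FGF3+10 and DFNB in turn. The hESC level of Shef1 lay below 4, so the size of the difference within Shef1 is uncertain. With values below 4 set to 4, the BMP4 difference over all lines was 1.93 for FGF3+10 and 2.14 for DFNB. Without the hESC array of Shef1 it was 0.80 for FGF3+10 (adjusted p = 0.413) and 1.00 for DFNB (adjusted p = 0.268). BMP4 had 1 probe set, so no second measurement bears on that low value.

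BMP2, the nearest relative of BMP4, stood at 7.75, 7.06 and 5.92 in FGF3+10 and at 6.78, 7.98 and 6.17 in DFNB, against 10.12, 9.28 and 7.48 in hESC (205290_s_at). It was lower in all 3 lines in both media, while the groups overlapped through the low Shef1 value of hESC. This gave a log2 difference of -2.05 ± 0.78 (SE) for FGF3+10 (adjusted p = 0.340, and 0.118 with the block) and -1.98 ± 0.78 for DFNB (adjusted p = 0.279, and 0.0973 with the block). A second probe set of BMP2 (205289_at) stood at 7.16, 6.55 and 6.90 in FGF3+10 and 6.36, 7.38 and 7.24 in DFNB, against 9.60, 8.84 and 8.04 in hESC. On that probe set neither day 14 group overlapped hESC. Without the hESC array of Shef1 the difference of the main probe set was -2.79 for FGF3+10 and -2.72 for DFNB. With all Shef1 arrays left out, which keeps the lines balanced, the difference was -2.29 for FGF3+10 and -2.32 for DFNB.

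BMP5, a ligand close to BMP7 in sequence, had levels of 5.86, 6.49 and 4.00 in FGF3+10 and 6.39, 5.89 and 4.95 in DFNB, against 5.08, 5.82 and 4.31 in hESC (205431_s_at). The groups overlapped, and Shef1 was the lowest line in each of them. Relative to hESC, the log2 difference was 0.38 ± 0.70 (SE) for FGF3+10 (adjusted p = 0.869) and 0.67 ± 0.70 for DFNB (adjusted p = 0.668). Their 95% intervals ran from -1.22 to 1.97 and from -0.93 to 2.27. Without the hESC array of Shef1 the difference was -0.0036 for FGF3+10 and 0.29 for DFNB. With all Shef1 arrays left out, which keeps the lines balanced, the difference was 0.72 for FGF3+10 and 0.69 for DFNB. The other probe set of BMP5 (205430_at) had means of 5.12 ± 1.25 (SD, n = 3) in FGF3+10 and 5.10 ± 0.65 in DFNB, against 4.20 ± 1.06 in hESC.

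Among the ID genes, ID2, ID3 and ID4 had higher levels at day 14 than in hESC in every line, though none of the 4 ID genes passed the test. ID2 stood at 10.86, 10.96 and 10.88 in FGF3+10 and at 11.22, 10.63 and 10.61 in DFNB, against 10.50, 9.93 and 8.84 in hESC (201565_s_at). All 6 day 14 arrays were above the hESC arrays, and the 3 FGF3+10 arrays lay within an SD of 0.05. Against hESC the log2 difference was 1.14 ± 0.43 (SE) for FGF3+10 (adjusted p = 0.340) and 1.07 ± 0.43 for DFNB (adjusted p = 0.289).

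ID4, the family member best known from neural progenitors, had levels of 9.60, 9.14 and 9.63 in FGF3+10 and 9.45, 8.75 and 9.61 in DFNB, against 8.89, 7.79 and 6.77 in hESC (209291_at). FGF3+10 did not overlap hESC, while the DFNB array of H14 lay just under the hESC array of Shef3. On the log2 scale the difference was 1.64 ± 0.53 (SE) for FGF3+10 (adjusted p = 0.265) and 1.45 ± 0.53 for DFNB (adjusted p = 0.251).

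ID3 stood at 10.21, 10.65 and 10.25 in FGF3+10 and at 10.26, 10.08 and 10.03 in DFNB, against 10.05, 9.55 and 7.86 in hESC (207826_s_at). In Shef3 the day 14 levels exceeded hESC by only 0.16 and 0.21, for FGF3+10 and DFNB in turn, while in Shef1 they did so by 2.39 and 2.18. This gave a log2 difference of 1.22 ± 0.52 (SE) for FGF3+10 (adjusted p = 0.407) and 0.97 ± 0.52 for DFNB (adjusted p = 0.401).

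ID1, often read as the standard reporter of BMP signalling, had levels of 10.27, 10.74 and 10.48 in FGF3+10 and 10.47, 10.08 and 10.40 in DFNB, against 11.03, 10.99 and 10.09 in hESC (208937_s_at). Day 14 was lower than hESC in Shef3 and H14 and higher in Shef1, and the groups overlapped. Relative to hESC, the log2 difference was -0.21 ± 0.34 (SE) for FGF3+10 (adjusted p = 0.848), turning to 0.07 after quantile normalisation, and -0.39 ± 0.34 for DFNB (adjusted p = 0.605). The 95% interval for DFNB ran from -1.16 to 0.39, so its upper end was below the 1.07 of ID2 and the 0.97 of ID3. Whether ID1 differed from the other ID genes was not tested. With the hESC array of Shef1 left out, the ID1 difference was -0.51 for FGF3+10 and -0.69 for DFNB.

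The differences of ID3 and ID4 were largest in Shef1. Taking both media together, the day 14 minus hESC difference in Shef3, H14 and Shef1 was 0.18, 0.81 and 2.28 for ID3 and 0.63, 1.15 and 2.84 for ID4. Without the hESC array of Shef1 the difference for FGF3+10 and DFNB was 0.69 and 0.61 for ID2, 0.57 and 0.32 for ID3, and 1.11 and 0.92 for ID4. For each of these 3 genes the direction stayed without that array and the difference was smaller.

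**Figure D2:**
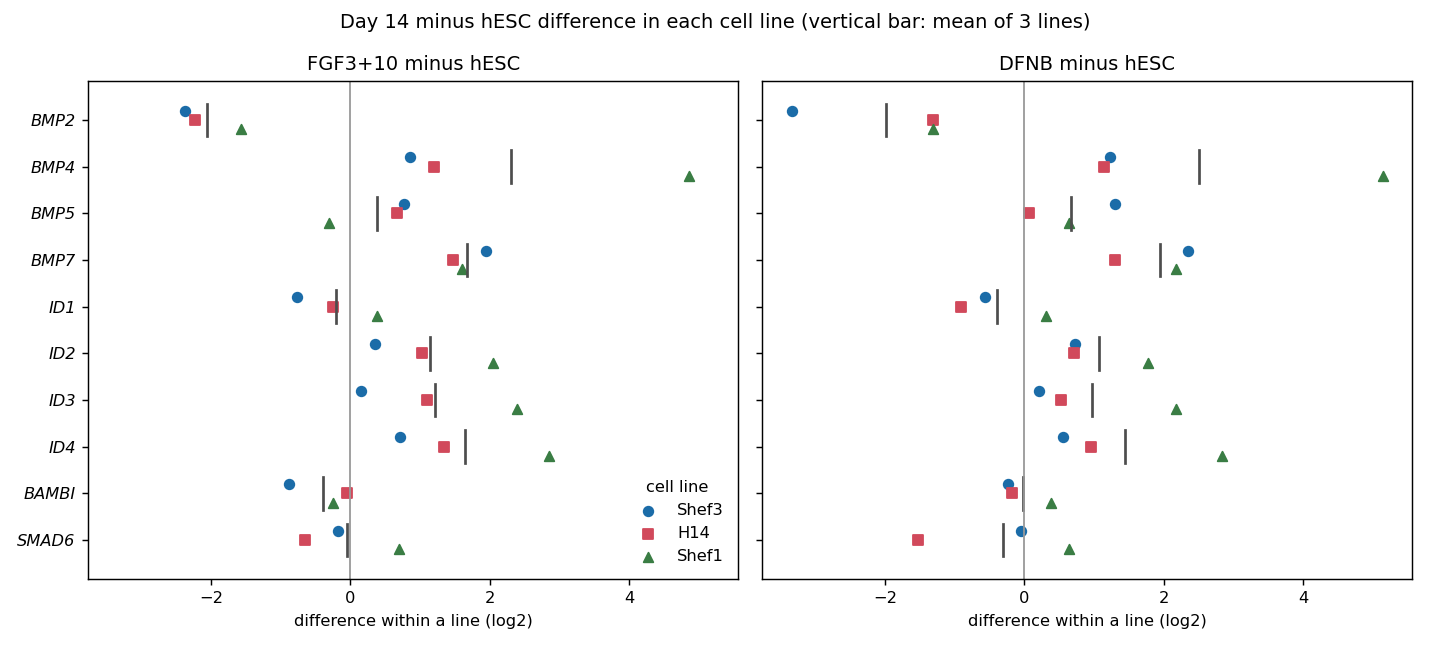
Difference in level (log2) of the main probe sets between day 14 and hESC within each cell line, for FGF3+10 on the left and DFNB on the right. Vertical bars are means of 3 lines. Points of ID2, ID3 and ID4 lie right of 0 in all lines with Shef1 farthest out, those of BMP7 lie close together in FGF3+10, and those of ID1 and SMAD6 lie on both sides.

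Of the feedback inhibitors, BAMBI stood at 10.19, 10.34 and 8.41 in FGF3+10 and at 10.83, 10.21 and 9.04 in DFNB, against 11.07, 10.39 and 8.66 in hESC (203304_at). The Shef1 array was the lowest in every group, and the groups overlapped almost wholly. Against hESC the log2 difference was -0.39 ± 0.78 (SE) for FGF3+10 (adjusted p = 0.878) and -0.01 ± 0.78 for DFNB (adjusted p = 0.995, and 0.22 in size after quantile normalisation, with the sign turned). Leaving out the hESC array of Shef1 gave -1.08 for FGF3+10 and -0.70 for DFNB. With all Shef1 arrays left out, which keeps the lines balanced, the difference was -0.47 for FGF3+10 and -0.21 for DFNB. With the block the SE was 0.29, since most of the spread of BAMBI lay between lines.

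SMAD6 stood at 7.25, 6.90 and 6.93 in FGF3+10 and at 7.38, 6.03 and 6.86 in DFNB, against 7.43, 7.54 and 6.23 in hESC (207069_s_at). H14 was lower at day 14 and Shef1 higher, with Shef3 nearly level. On the log2 scale the difference was -0.04 ± 0.47 (SE) for FGF3+10 (adjusted p = 0.985), turning to 0.06 after quantile normalisation, and -0.31 ± 0.47 for DFNB (adjusted p = 0.780). The 95% intervals ran from -1.11 to 1.02 and from -1.37 to 0.76. The differences were -0.46 and -0.73 without the hESC array of Shef1.

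The comparison of FGF3+10 with DFNB asks what the added FGFs changed at day 14. None of the 10 genes was called by limma, where 0% of all 19775 genes were called. At an unadjusted p below 0.05 there were also none of the 10, against 1.52% of all genes, and the lowest unadjusted p was 0.471 for BMP7. The log2 differences ran from -0.38 ± 0.78 (SE, n = 3 and 3 arrays) for BAMBI to 0.27 ± 0.47 for SMAD6. The 95% interval was narrowest for ID1, from -0.60 to 0.96, and widest for BMP4, from -2.66 to 2.25. ID4 was the 1 gene higher with FGFs in all 3 lines, by 0.16, 0.39 and 0.02, where 9.4% of all genes were higher in all lines. These intervals are from the fit without the block, whose spread also takes in the hESC arrays and the differences between lines. Within the lines the BMP4 difference was -0.37, 0.05 and -0.29, with an SD over lines of 0.22. The intervals leave room for differences of over 0.5 units in either direction for each gene, so they do not show that the media act alike.

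Cell lines were compared by limma's F test for line, with group in the model. None of the 10 was called, where 0.46% of all genes were, and 3 of 10 had an unadjusted p below 0.05 (BMP2, BMP5 and BAMBI), against 20.3% of all genes. Where genes with a mean level below 4 were left out, the adjusted p of BAMBI was 0.0214. The share of all genes called in that setting was not counted. The mean of BAMBI was 8.70 ± 0.32 (SD, n = 3 arrays) in Shef1, against 10.32 ± 0.09 in H14 and 10.70 ± 0.45 in Shef3 (adjusted p = 0.0645 over all genes). In the same order of lines BMP5 averaged 4.42 ± 0.48, 6.07 ± 0.37 and 5.78 ± 0.66 (adjusted p = 0.128), and BMP2 averaged 6.52 ± 0.84, 8.11 ± 1.12 and 8.22 ± 1.71 (adjusted p = 0.162). Shef1 was the lowest of the lines for each of these 3 genes by main probe set. On 205289_at of BMP2 it was not the lowest at day 14. There Shef1 stood at 6.90 against 6.55 in H14 in FGF3+10, and at 7.24 against 6.36 in Shef3 in DFNB. In the F test for line the unadjusted p of BMP2 was 0.017, and 0.137 with the mean of its probe sets.

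By main probe sets, the hESC array of Shef1 was the lowest of the 3 hESC arrays for 9 of the 10 genes, all but BMP7. Of all genes, 50.9% had it lowest. It lay over 1 unit below both other hESC arrays for 7 of 10, against 12.5% of all genes. On other probe sets of BMP7 it was the lowest too. The hESC levels were 6.86, 6.38 and 4.82 on 209591_s_at and 5.37, 4.68 and 2.76 on 211259_s_at. The gap to the mean of the other hESC arrays was -4.50 for BMP4 (with the Shef1 level below 4), -2.22 for BMP2, -2.07 for BAMBI and -1.95 for ID3. The SD over the 6 day 14 arrays was smaller than that over the 3 hESC arrays for 9 of the 10 genes, all but BMP5, against 51.7% of all genes. For BMP4 the SD was 0.37 at day 14 and 2.60 in hESC, and for ID3 it was 0.22 and 1.15. A model in which the day 14 change could differ by line called none of the 10 and 0% of all genes, with 3 of 10 (BMP4, ID3 and ID4) at an unadjusted p below 0.05 against 19.4% of all genes. Its only measure of spread is the gap between FGF3+10 and DFNB within a line. In that F test the unadjusted p of ID4 was 0.0060, and 0.225 with the mean of its probe sets. For ID3 it was 0.016, and 0.066 after quantile normalisation. For BMP4 the adjusted p of that test was 0.203, and 0.0464 with values below 4 set to 4. The unadjusted p of BMP4 was 0.00042 and 0.0031 in turn, so it was not smaller with the floor. The share of all genes called with the floor was not counted. The poly-A spike-ins and the upper quartile also set the Shef1 arrays apart, at day 14 as well as in hESC. Their part in these values was not tested.

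Several genes had more than 1 probe set, which gave a check within the array. Probe sets ending in s_at hold probes shared by several transcripts, and those ending in x_at hold probes that may bind other sequences too. ID4 had 5, of which 4 had higher means at day 14 in both media, with log2 differences of 1.43 to 2.05 for FGF3+10 and 1.17 to 1.74 for DFNB. The other, 229386_at, lay below 4 on all arrays and gave 0.14 and -0.73. Probe set 226933_s_at of ID4 stood at 5.80, 5.50 and 6.49 in FGF3+10 and 5.46, 5.13 and 6.27 in DFNB, against 4.26, 3.22 and 4.16 in hESC, so here Shef1 was not the lowest hESC array. Within the lines its difference was 1.55, 2.28 and 2.34 for FGF3+10 and 1.20, 1.90 and 2.12 for DFNB.

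The second probe set of ID2 (201566_x_at) gave 1.06 for FGF3+10 and 1.01 for DFNB. The 3 brighter probe sets of BMP7 gave 1.04 to 1.67 for FGF3+10 and 1.37 to 1.94 for DFNB, but on 209591_s_at and 211259_s_at both media overlapped hESC. The mean over all 4 BMP7 probe sets differed from hESC by 1.03 in FGF3+10 (adjusted p = 0.316) and 1.55 in DFNB (adjusted p = 0.124). Its dimmest probe set (211260_at), below 4 on all arrays, gave 0.11 and 1.37. For SMAD6, 3 of 4 probe sets lay below 4 on all arrays and went in different directions, so its value rests on the main probe set. One further probe set that names a member gene beside another gene was left out by rule.

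**Figure D3:**
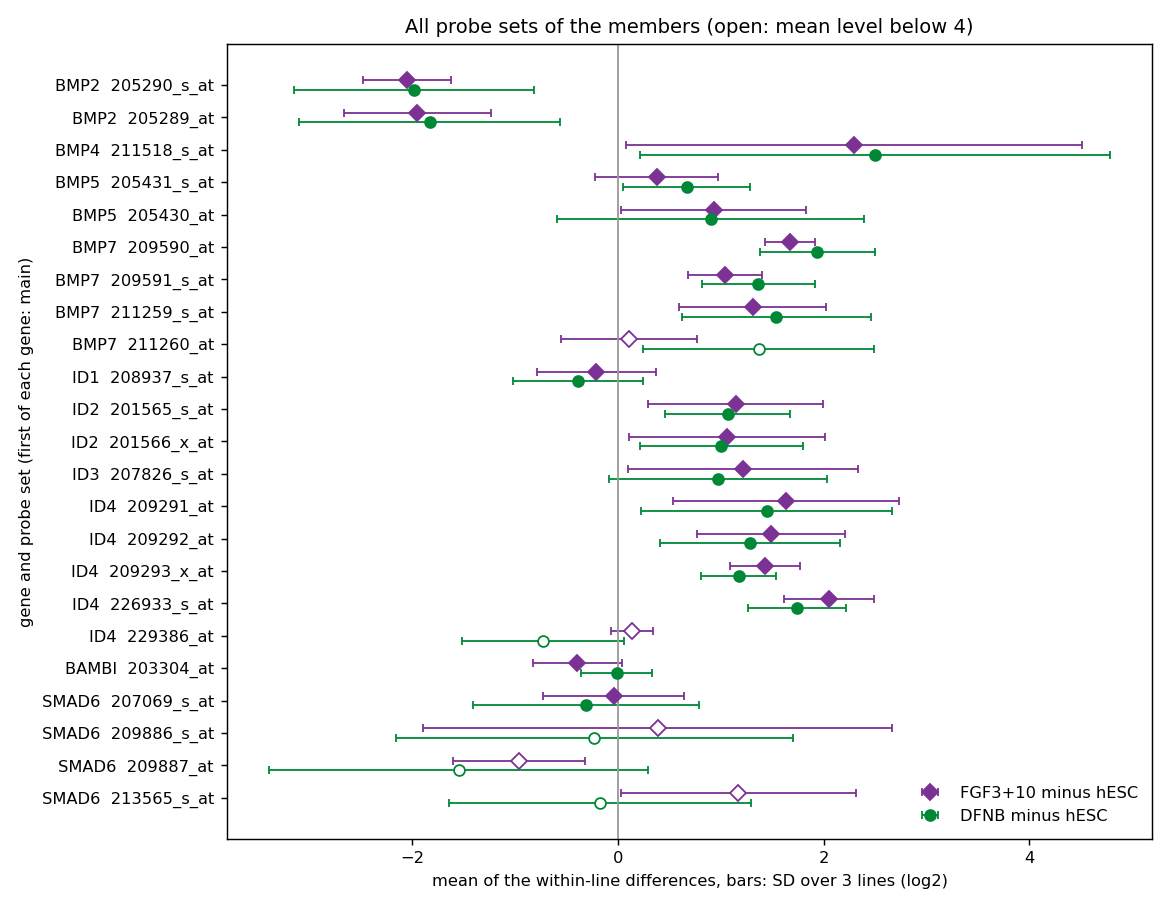
Mean of the within-line differences (log2) between day 14 and hESC for all 23 probe sets of the 10 genes, with diamonds for FGF3+10 and circles for DFNB. Bars are the SD over 3 lines and open symbols mark probe sets with a mean level below 4. The brighter probe sets of BMP2 lie left of 0 and those of BMP7, ID2 and ID4 right of 0, while dim probe sets scatter.

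The other genes of the pathway were read from lists by role. Of 17 measured secreted antagonists and modulators, 1 was called as higher in FGF3+10 and none as lower, where 0.177% of all genes were called. None passed in DFNB, where 0.202% were called. In FGF3+10 1 gene thus passed. It was SOSTDC1, a secreted inhibitor of BMP and WNT signalling, with 6.41, 7.25 and 6.24 in FGF3+10 and 6.58, 6.01 and 6.24 in DFNB, against 3.86, 4.17 and 3.36 in hESC. The groups did not overlap, and the log2 difference was 2.83 ± 0.38 (SE) for FGF3+10 (adjusted p = 0.0357) and 2.48 ± 0.38 for DFNB (adjusted p = 0.0553, and 0.0420 with the block). The hESC levels of SOSTDC1 in Shef3 and Shef1 lay below 4, so the size of its difference is uncertain. NOG, which encodes Noggin, a protein that traps BMP2 and BMP4, stood at 6.60, 6.81 and 6.90 in FGF3+10 and 7.15, 7.95 and 7.35 in DFNB, against 5.61, 4.58 and 5.42 in hESC. All 6 day 14 arrays were above hESC, with a log2 difference of 1.57 ± 0.37 for FGF3+10 (adjusted p = 0.138) and 2.28 ± 0.37 for DFNB (adjusted p = 0.0571). GREM1, another BMP trap, had differences of -0.41 ± 1.12 and 0.36 ± 1.12. CER1 was lower on all day 14 arrays than on any hESC array. It stood at 4.27, 1.34 and 1.66 in FGF3+10 and -4.38, 4.52 and 4.93 in DFNB, against 9.66, 6.67 and 9.91 in hESC. Several of these levels lie below 4, so no size is given. At an unadjusted p below 0.05 in limma's test, 2 of the list were higher and 1 lower in FGF3+10, and 3 and 1 in DFNB. Of all genes, 4.52% were higher and 7.47% lower in FGF3+10, and 6.11% and 9.69% in DFNB. The median over the list was 0.21 in FGF3+10 and 0.36 in DFNB.

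Of 10 measured receptors and co-receptors none passed in either comparison, with medians of -0.13 in FGF3+10 and -0.47 in DFNB. BMPR2, the type II BMP receptor, averaged 8.51 ± 0.91 (SD, n = 3) in FGF3+10 and 9.04 ± 0.61 in DFNB, against 7.62 ± 0.47 in hESC (adjusted p = 0.548 and 0.262). Of 11 SMAD transducers and regulators none passed, with medians of -0.12 and 0.01. SMAD9, a BMP-activated SMAD and itself a reported BMP target, averaged 8.77 ± 0.54 in FGF3+10 and 8.40 ± 1.16 in DFNB, against 6.69 ± 0.88 in hESC (adjusted p = 0.260 and 0.272). Its H14 level in DFNB, 7.07, was below that of hESC, 7.59, while the other day 14 levels were above hESC of the same line. SKIL, a repressor of SMAD activity, had differences of -0.74 ± 0.30 and -0.65 ± 0.30 (adjusted p = 0.379 and 0.339). Of 9 other BMP and GDF ligands none passed, with medians of -0.10 and 0.

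Of 14 other reported BMP response genes none passed without the block, and the medians were 1.16 in FGF3+10 and 1.17 in DFNB. With the block 3 of 14 rose in each medium, where 0.303% of all genes rose in FGF3+10 and 0.506% in DFNB. MSX2, a homeobox factor of ectoderm and neural crest, stood at 10.08, 9.07 and 8.04 in FGF3+10 and 10.30, 9.33 and 8.38 in DFNB, against 7.78, 6.97 and 5.39 in hESC. The order of the lines was the same in every group, and the difference was 2.35 ± 0.77 (SE) for FGF3+10 (adjusted p = 0.275, and 0.0297 with the block) and 2.62 ± 0.77 for DFNB (adjusted p = 0.176, and 0.0234 with the block). TFAP2A, a factor of surface ectoderm, placodes and crest, stood at 8.71, 10.10 and 8.51 in FGF3+10 and 9.06, 9.40 and 8.43 in DFNB, against 6.06, 7.43 and 5.79 in hESC. Its difference was 2.68 ± 0.58 for FGF3+10 (adjusted p = 0.116, and 0.0323 with the block) and 2.54 ± 0.58 for DFNB (adjusted p = 0.110, and 0.0324 with the block). The third was DLX5, a placodal homeobox gene (adjusted p = 0.0445 and 0.04997 with the block), at 3.64, 6.34 and 4.07 in FGF3+10 and 3.26, 4.66 and 4.39 in DFNB, against 0.73, 1.45 and 1.07 in hESC. The hESC levels of DLX5 were all below 4, so no size is given for its difference. Not all of the list rose. At an unadjusted p below 0.05 in limma's test without the block, 5 were higher and 2 lower in FGF3+10, and 6 and 2 in DFNB. Of all genes, 4.52% were higher and 7.47% lower in FGF3+10, and 6.11% and 9.69% in DFNB. TFAP2C stood at 5.35, 7.51 and 7.15 in FGF3+10 and 6.03, 6.69 and 7.18 in DFNB, against 8.75, 8.08 and 8.22 in hESC. Of the 3 helix-loop-helix partners of ID proteins none passed, and TCF4 had differences of 0.49 ± 0.31 and 0.50 ± 0.31. In FGF3+10 against DFNB no gene of these lists passed.

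**Figure D4:**
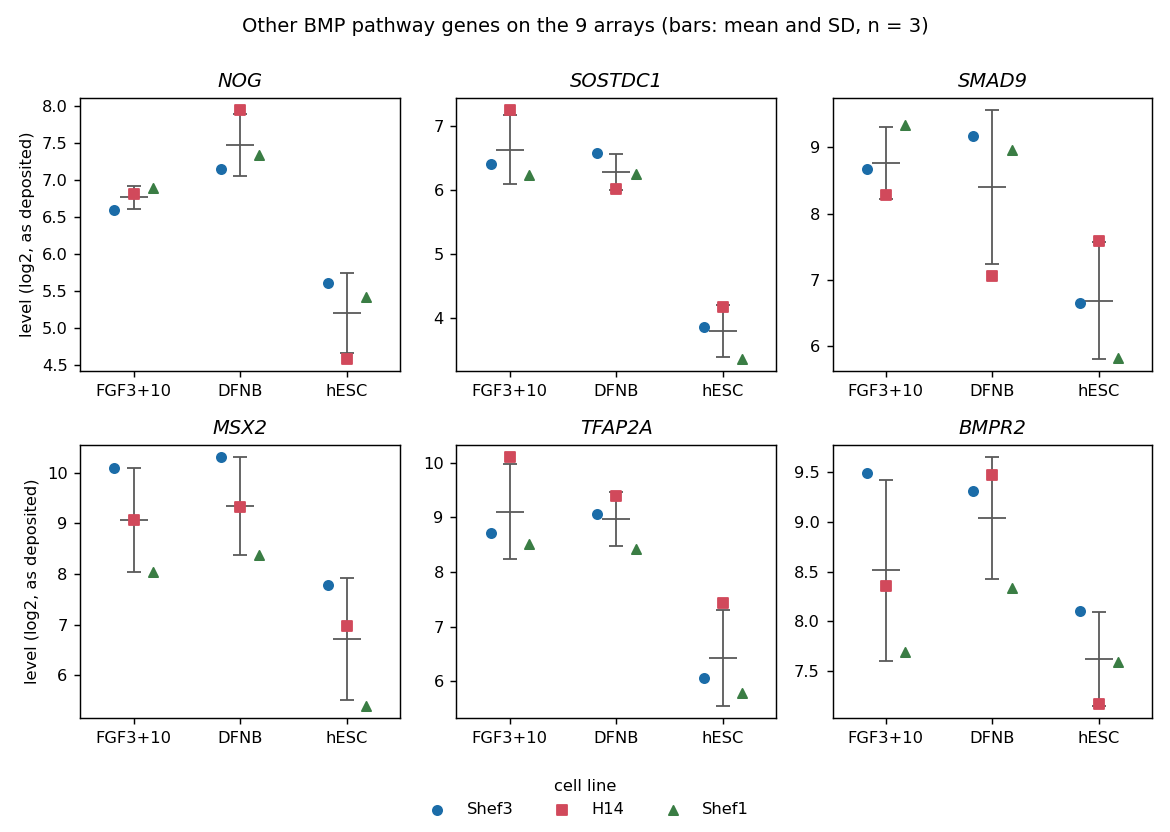
Level (log2, as deposited) of 6 other genes of the BMP pathway on the 9 arrays, by group and with a symbol for each cell line. Bars are the mean and SD of 3 arrays. NOG, SOSTDC1, MSX2 and TFAP2A lie higher on all day 14 arrays than on any hESC array.

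Markers of the cell types that such cultures can hold moved over the same comparisons. All 7 measured pluripotency markers were lower on average at day 14, and their summed level was 18.1, 62.3 and 59.1 in FGF3+10 and 17.1, 50.2 and 57.5 in DFNB, against 77.6, 73.3 and 62.6 in hESC. Much of the low hESC sum of Shef1 came from ZFP42, at -0.48 there against 10.47 in Shef3 and 9.23 in H14, and below 0 on all Shef1 arrays. Without ZFP42, a choice made after its values were seen, the sums of the other 6 markers were 11.8, 54.6 and 60.0 in FGF3+10 and 10.7, 44.1 and 58.3 in DFNB, against 67.1, 64.1 and 63.1 in hESC. The Shef3 sums at day 14 take in levels far below 4. NANOG stood there at -7.62 in FGF3+10 and -10.17 in DFNB, and PRDM14 at -4.18 and -5.75. The size of the fall in Shef3 cannot be read from these sums. Sums of other cell types also hold levels below 4, such as the neural marker SIX6 at -1.73, -1.78 and -1.08 in hESC. The sum of 8 neural progenitor markers, 6 of them higher on average at day 14, was 54.7 to 66.2 in FGF3+10 and 43.5 to 63.5 in DFNB, against 27.0 to 35.4 in hESC. That of 7 epidermis and surface ectoderm markers, of which 4 were higher in FGF3+10 and 6 in DFNB, was 39.7 to 55.8 and 42.8 to 60.7, against 37.3 to 41.1 in hESC. Trophoblast markers, with CGA, GCM1 and ERVW-1 of 8 below 4 on all arrays, summed to 21.8 to 40.5 and 24.4 to 41.7, against 21.0 to 31.7 in hESC. The part of these changes in culture makeup in the BMP and ID values was not tested.

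All 6 endoderm markers were lower on average at day 14, with sums of 23.6 to 29.6 in FGF3+10 and 26.7 to 30.9 in DFNB, against 40.1 to 51.5 in hESC. The 8 mesenchyme and fibroblast markers, of which 2 were higher in FGF3+10 and 7 in DFNB, summed to 69.5 to 87.9 and 78.4 to 91.7, against 79.9 to 80.9 in hESC, where mouse feeder cells were present. The 6 neural crest markers summed to 32.6 to 39.6 and 35.6 to 39.8, against 33.5 to 39.1 in hESC. The 4 endothelial markers, with CDH5 below 4 on all arrays, summed to 15.6 to 20.7 and 19.0 to 20.5, against 18.9 to 20.6 in hESC.

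As a description of likeness, the 5 genes outside the set whose levels over the 9 arrays had the highest Pearson correlation with the mean of ID1, ID2 and ID3 were EFHD2, TSPAN6, TP53BP1, BBS1 and CHD6. They came from 8408 genes with a mean level of at least 6. Their correlations were 0.946 to 0.956 over 9 arrays, and 0.538 to 0.730 over the 8 arrays without hESC Shef1. The likeness therefore rests largely on that array.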

How the data were processed

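Total RNA was amplified by a 3′ IVT kit and hybridised to Affymetrix arrays, per the labels' protocols. The deposited values are log2 expression values by assumption: the sources used here give neither the base of the logarithm nor the software and probe summary. Values ranged from -14.4 to 13.3, and no detection calls were used. Symbols came from the platform annotation and were updated through Entrez identifiers (RefSeq, GRCh38.p14), which matched for 41037 of 41091 probe sets with 1 symbol; 1801 had several and 11721 had none. The test on main probe sets was limma's (version 3.58.1, R 4.3.3; lmFit, eBayes), with a mean per group and 1 spread over 9 arrays. P-values were adjusted by Benjamini-Hochberg over 19775 genes and called below 0.05. P-values of single probe sets were not printed. The fit was tested on simulated data. Arrays of a line pair by the cell line label. Deviations from group means correlated within lines at 0.0861 to 0.338 between DFNB and hESC, 0.181 to 0.283 between FGF3+10 and hESC and 0.331 to 0.713 between FGF3+10 and DFNB. Across different lines they ran from -0.249 to 0.173, -0.274 to 0.0558 and -0.501 to 0.222 in turn. The DFNB array of H14 correlated more with hESC of Shef3 (0.173) than with hESC of its own line (0.0861). P-values measure the spread between single arrays of 3 lines. Alternatives were the block, quantile normalisation, mean of probe sets, all probe sets, leaving out dim genes, a floor of 4, and leaving out lines or arrays. Genes outside the 10 were named where called, with or without the block, or as the 2 largest differences of a list at a mean level of at least 6. BMPR2, SMAD9, SKIL, GREM1 and TCF4 are such cases, and not all are named. CER1 and TFAP2C fall outside this rule and were named after their values were seen, because they were lower at day 14. Members and lists were chosen with earlier results of these data known.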

Additional observations from a re-analysis of the deposited data

Results flagged for a closer look

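The differences of ID1 and SMAD6 had opposite signs between lines: both day 14 arrays of Shef1 were above its hESC array, and both day 14 arrays of Shef3 and of H14 were below theirs. For SMAD6 in Shef3 the difference was near 0, at -0.18 in FGF3+10 and -0.04 in DFNB. For ID1 the mean day 14 minus hESC difference in Shef1 exceeded that in Shef3 by 1.01 and that in H14 by 0.93. For SMAD6 it exceeded that in Shef3 by 0.78 and that in H14 by 1.75. In limma's F test of a change that differs by line, neither passed (adjusted p = 0.396 for ID1 and 0.297 for SMAD6).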

How the results depend on the processing

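With the cell line as replicate block, 1 of the 10 genes was called in DFNB against hESC and the count of all genes was 189, against 115 in FGF3+10 against hESC; without the block the counts were 0, 40 and 35. Leaving out genes with a mean level below 4 gave 1 (BMP7, adjusted p = 0.0341), 122 and 66, and 1 of the 10 between lines (BAMBI). Setting values below 4 to 4 called 1 for a day 14 change that differs by line (BMP4). For these calls of BAMBI and BMP4 the share of all genes called at the same setting was not counted. The block changed no other call among the 10. Quantile normalisation turned the sign of BAMBI in DFNB to 0.22, and of ID1 and SMAD6 in FGF3+10 to 0.074 and 0.065. The mean of probe sets turned SMAD6 in FGF3+10 to 0.14. None of these values passed in any setting. With 1 array or 1 line left out, all genes called ran from 0 to 72 in DFNB and 0 to 32 in FGF3+10, and no gene of the 10 was called. The log2 difference then spanned 0 for BAMBI (-0.70 to 0.50) and SMAD6 (-0.78 to 0.30) in DFNB against hESC. It did so for BAMBI (-1.08 to 0.23), BMP5 (-0.14 to 1.10), ID1 (-0.51 to 0.069) and SMAD6 (-0.46 to 0.26) in FGF3+10 against hESC. In FGF3+10 against DFNB it did so for BAMBI (-0.87 to 0.24), BMP2 (-0.59 to 0.43), BMP4 (-0.43 to 0.020), BMP5 (-0.81 to 0.43), ID1 (-0.064 to 0.37), ID2 (-0.047 to 0.30), ID4 (-0.071 to 0.36) and SMAD6 (-0.10 to 0.58). The cause was not tested. Arrays carry no read depth; 3 arrays a group limit the precision.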
